A study of Mus musculus with 6 samples.

Results

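The normal transcriptome of lung endothelium was described from the 3 control libraries of a series of 6, all made from endothelial cells sorted from mouse lungs at postnatal day 7. Its genes were the rows of the deposited expression table with a mean of at least 1 FPKM over controls A, B and C, leaving out rows whose name starts with Mir, Snora or Snord. FPKM divides the fragments of a gene by its transcript length and by the size of the library, so levels can be set beside each other between genes. This rule kept 11587 of 23793 rows, or 48.7% of them, and 6774 rows were listed at 0 in all 3 controls. The 3 mutant libraries were not used.

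Each control is labelled with the genotype control, a mixed strain background and lung endothelial cells as the cell type, and the titles name Vegfa and Shh without spelling out the alleles. The labels also do not give what the control lungs carried or lacked, the sorting gate, the sex or the number of animals behind a library. Libraries are therefore samples whose spread may be technical or biological, and with 1 group no test was made. No count of fragments comes with the values. Steps between the smallest values put the depth of control B at 1.29 and that of control C at 0.897 times that of control A. Where 3 values follow a gene below, they are the levels in controls A, B and C in that order, and a level with an error is the mean ± SD over these 3 libraries (n = 3).

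Endothelial cells line the blood and lymph vessels. In the lung most of them form the capillary net around the air sacs, which is made of general capillary cells, marked by Plvap and Aplnr, and of Car4-high capillary cells, large thin cells that face the air and depend on VEGFA from the alveolar epithelium. In mice the air sacs are being divided by new septa in the days after birth, while the capillary net grows with them. VEGF receptors, the angiopoietin receptor, the BMP receptor ALK1 and Notch are known regulators of endothelial growth and identity.

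The 6 genes that mark the cells were high in all 3 libraries. Cldn5, the main claudin of endothelial tight junctions, was at 2430.2, 2042 and 2099 FPKM. Cdh5, or VE-cadherin, the cadherin of endothelial adherens junctions, was at 1309.9, 1076 and 1092 FPKM, and Pecam1, the adhesion molecule CD31, was at 928, 748 and 737 FPKM. These 3 were each highest in control A, and among all genes of the baseline they ranked 2, 13 and 33 by mean level. Plvap, which forms the diaphragms of caveolae and fenestrae, was at 680.0, 794 and 918 FPKM and ran the other way, lowest in control A and highest in control C. Kdr, the main VEGFA receptor VEGFR2, was at 277, 301 and 309 FPKM. Car4, a membrane-anchored carbonic anhydrase, was at 226, 201 and 170.3 FPKM. The wider pan-endothelial list was kept in 20 of 20 cases, with a median of 441 FPKM. Of these 20 genes 15 were highest in control A, against 31.8% of all baseline genes, and 4 were lowest there, against 49.5%. Of the 5 neighbouring pairs in the order of the 6 markers, the ranges over the libraries overlapped in 1, that of Pecam1 and Plvap.

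The 250 bases before the RefSeq transcription start are shown for 3 of these genes, the tight junction gene, the VEGF receptor and the Car4-high capillary marker. Sequences are from RefSeq on GRCm38.p6, the build named mm10, and read 5′ to 3′ on the strand of the gene, with CG pairs in capitals. That of Cldn5 lies at chr16:18776597-18776846 on the forward strand with 12 CG pairs, that of Kdr at chr5:75978456-75978705 on the reverse strand with 16, and that of Car4 at chr11:84957504-84957753 on the forward strand with 11.
Cldn5: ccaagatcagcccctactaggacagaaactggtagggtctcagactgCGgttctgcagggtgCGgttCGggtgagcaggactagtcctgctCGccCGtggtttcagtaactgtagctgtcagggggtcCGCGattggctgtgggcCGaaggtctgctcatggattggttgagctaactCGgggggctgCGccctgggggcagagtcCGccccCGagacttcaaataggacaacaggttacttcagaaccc
Kdr: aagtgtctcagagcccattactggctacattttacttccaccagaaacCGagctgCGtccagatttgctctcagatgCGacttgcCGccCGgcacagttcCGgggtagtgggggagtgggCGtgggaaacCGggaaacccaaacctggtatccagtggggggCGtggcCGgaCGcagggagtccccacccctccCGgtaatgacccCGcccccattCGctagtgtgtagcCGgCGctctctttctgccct
Car4: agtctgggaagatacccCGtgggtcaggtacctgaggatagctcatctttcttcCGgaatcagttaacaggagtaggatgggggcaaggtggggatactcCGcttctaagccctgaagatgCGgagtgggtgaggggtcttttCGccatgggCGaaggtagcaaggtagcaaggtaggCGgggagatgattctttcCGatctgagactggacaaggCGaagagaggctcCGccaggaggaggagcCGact

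Levels ran over 3 orders of magnitude. The median gene stood at 12.4 FPKM, the lower and upper quartiles at 5.08 and 28.9 FPKM, and the 10th and 90th percentiles at 2.25 and 66.4 FPKM. Between 1 and 10 FPKM there were 4978 genes, which together held 5.91% of the summed FPKM. From 100 FPKM to under 1000 FPKM there were 697 genes, which held 43.5%, and 18 genes at 1000 FPKM or more held 6.79%. The sum was spread widely, since the 10 highest genes held 4.50% of it and 702 genes were needed to reach 50%. Tspan11, at a mean of 1.0005 FPKM, was the lowest gene kept, and Suv39h2, at 0.9986 FPKM, was the highest left out. A total of 628 genes, or 5.42%, were past a 2-fold range, meaning that the highest library was at least 2-fold above the lowest on the FPKM + 1 scale. In 513 genes at least 1 library was below 1 FPKM, and 15 of these were listed at 0 in at least 1 library.

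**Figure D1:**
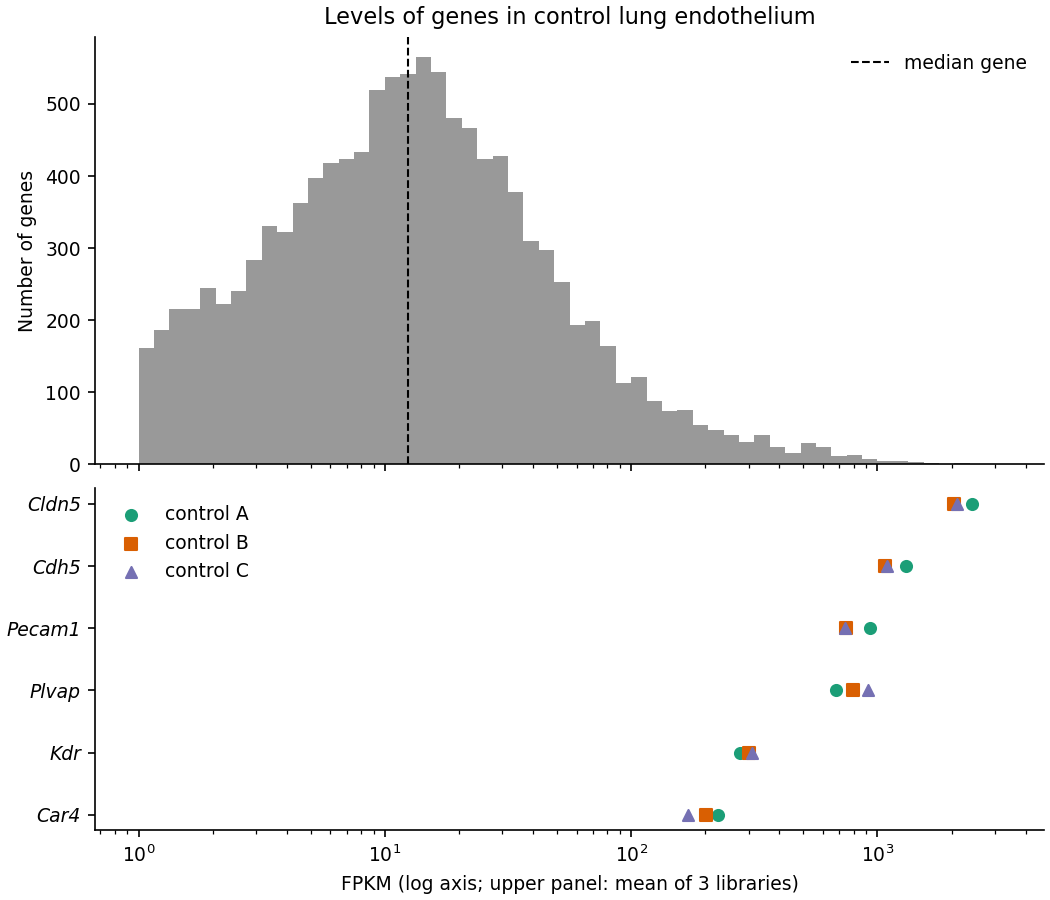
The upper panel counts genes by mean FPKM over the 3 control libraries on a log axis, with a dashed line at the median of 12.4 FPKM, and the lower panel shows the 6 marker genes on the same axis with 1 symbol per library. All 6 markers lie at more than 10 times the median gene, from Car4 at 199 ± 27.8 FPKM (mean ± SD) to Cldn5 at 2190.2 ± 209.7 FPKM.

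The head of the transcriptome mixed endothelial genes with those that most growing cells use. Rn45s, the row of the ribosomal RNA precursor, ranked 17 at 1082, 1105 and 941 FPKM, although the libraries were made from poly(A) RNA. Eef1a1, the elongation factor that brings aminoacyl-tRNA to the ribosome, was the highest gene at 2684, 2484 and 2483 FPKM. Cldn5 came next, ahead of both cytoplasmic actins, Actb at 2124, 2097 and 2156 FPKM and Actg1 at 1781, 1582 and 1538 FPKM. Other genes of vessels stood among the 30 highest. Ramp2, the partner that makes Calcrl an adrenomedullin receptor, was at 1005, 973 and 1005 FPKM. Aqp1, a water channel, was at 1118, 929 and 801 FPKM, and Cav1, the coat protein of caveolae, was at 971, 803 and 808 FPKM. Egfl7, a secreted protein of endothelium, was at 782, 952 and 802 FPKM. Col4a1 and Col4a2 encode the paired chains of basement membrane collagen, and their levels were 1259, 1287 and 1315 FPKM and 873, 917 and 911 FPKM. The ratio of the Col4a1 level to the Col4a2 level was 1.44, 1.40 and 1.44, so this pair kept nearly the same proportion in the 3 libraries. Eln, the precursor of elastic fibres and a product of fibroblasts, smooth muscle and some endothelium, was number 4 in rank but uneven, at 891, 2789 and 2291 FPKM. Ribosomal protein genes were high as a family, with 80 of 83 rows kept, a median of 517 FPKM and none past a 2-fold range. Ribosomal proteins and actins have many near-identical copies, among which the authors' counting may have divided the fragments. Less widely used genes also stood high, here chosen after their values were seen. Scn7a, a sodium channel gene, was at 909, 752 and 732 FPKM, and Tspan7, a tetraspanin, was at 835, 659 and 639 FPKM.

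Transcription factors of endothelium were present almost throughout: 28 of 29 on the list were kept, with a median of 99.6 FPKM. Epas1, which encodes the hypoxia-inducible factor HIF-2alpha, led the list at 723, 759 and 755 FPKM. Foxf1, a forkhead factor needed for lung vessel formation, was at 683, 551 and 607 FPKM. Klf2, induced by blood flow, was at 384, 696 and 425 FPKM, and its relative Klf4 was at 299.7, 262 and 199.5 FPKM. The Klf2 level over the Klf4 level was 1.28, 2.66 and 2.13, so the proportion of this pair was lowest in control A. The SoxF genes, which act in artery formation and vessel growth, were all above 100 FPKM, with Sox18 at 244, 339 and 279.8 FPKM, Sox17 at 165, 205 and 153 FPKM and Sox7 at 155, 159 and 141 FPKM. Of the ETS factors, Ets1 was at 155, 194 and 178 FPKM and Erg, an ETS factor that maintains endothelial identity, was at 62.6, 53.5 and 57.1 FPKM. Fli1, the ETS factor closest to Erg, was at 107, 36.6 and 60.5 FPKM and was more than 2-fold higher in control A than in control B. Gata2 was at 84, 124 and 104 FPKM, Tal1 at 21.9, 23 and 22 FPKM and Lmo2 at 110.0, 144 and 131 FPKM; these form a shared complex in blood and endothelial cells. The order within this list was loose: in 20 of 27 neighbouring pairs the ranges over the libraries overlapped, although Epas1 lay above Foxf1 in every library. Foxc1, known from vessel and mesenchymal development, was the lowest factor kept, at 1.37, 2.81 and 3.11 FPKM. Nkx2-3, a homeobox factor of gut and spleen vessels, was the factor below 1 FPKM, at 0, 0.0505 and 0 FPKM.

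T-box factors differed in how even they were. Tbx3 was at 108, 139 and 141 FPKM. Tbx2, a marker of Car4-high capillaries in the lists used here, was at 73.4, 166 and 163 FPKM, Tbx4, a factor of lung mesenchyme, was at 12.5, 35.6 and 38 FPKM, and Tbx5, known from heart and lung mesenchyme, was at 2.89, 8.85 and 10.7 FPKM. All 3 were lowest in control A, where 49.5% of baseline genes were lowest. The summed level of the mesenchymal marker list was also lowest there, at 1356 FPKM against 4231 and 3678 FPKM in controls B and C, and its part in these differences was not tested.

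Hox genes mark position along the body axis, with low paralogue numbers toward the head. Of 30 on the list 11 were kept, all from the Hoxa and Hoxb clusters and none above paralogue number 7. Hoxa5, which is needed for lung development, stood far above the rest at 137, 147 and 131 FPKM. The next were Hoxb2 at 11.2, 18.3 and 19.9 FPKM, Hoxb5 at 9.16, 17.7 and 22.7 FPKM and Hoxa3 at 13.9, 14.7 and 18.8 FPKM. None of the Hoxc genes on the list reached 1 FPKM, and 5 of them were listed at 0 in all 3 controls. Hoxd8 came closest in its cluster at 1.07, 0.522 and 0.488 FPKM. Of the 11 genes kept, 9 were lowest in control A, where 49.5% of all baseline genes were lowest, with Hoxb6 at 1.53, 5.65 and 5.79 FPKM. Mesenchymal markers were lowest in control A too, and their part in this was not tested.

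**Figure D2:**
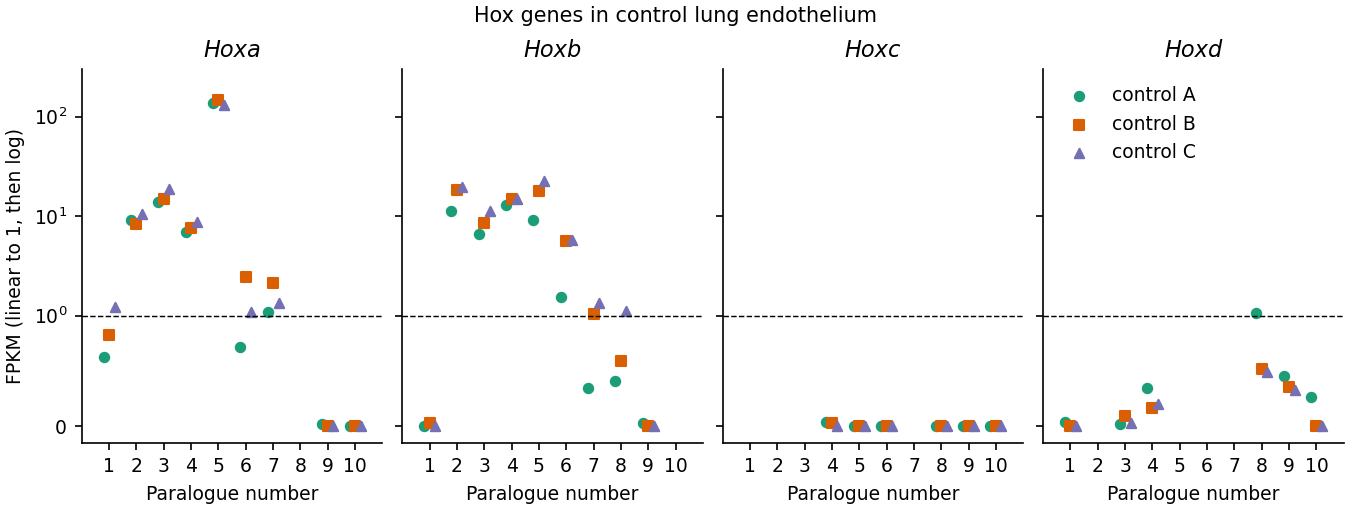
Each panel is a Hox cluster, the horizontal axis is the paralogue number and the vertical axis is FPKM, linear to 1 and logarithmic above, with 1 symbol per control library and a dashed line at the level minimum of 1 FPKM. Hoxa and Hoxb genes from numbers 2 to 5 lie above the line in every library, Hoxa5 highest, while the Hoxc genes sit at or near 0.

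Of the receptors of the VEGF and angiopoietin systems, Tie1, Kdr and Tek stood above all the ligands on the list. Flt1, Flt4 and Nrp2 were lower. Vegfa had a higher mean than these 3, at 80.9 against 74.2, 54.8 and 14.2 FPKM. Tie1, an orphan receptor that modulates the angiopoietin receptor, was at 454, 478 and 487 FPKM, above Kdr. Tek, the angiopoietin receptor Tie2, was at 249, 247 and 236 FPKM. Flt1, or VEGFR1, which binds VEGFA and limits it, was at 83, 67.9 and 71.7 FPKM, and Flt4, the VEGFC receptor VEGFR3, was at 64.6, 45.8 and 53.9 FPKM. In this order of Tie1, Kdr, Tek, Flt1, Flt4 and Nrp2 the ranges over the libraries of neighbours did not overlap in any of the 5 pairs. The Tie1 level over the Tek level was 1.83, 1.94 and 2.07, and the Kdr level over the Flt1 level was 3.34, 4.44 and 4.30. Ptprb, the phosphatase VE-PTP that acts on Tek and Cdh5, was at 213, 203 and 194 FPKM. Nrp1, a VEGF co-receptor, shares its row with a microRNA and so fell to the rule; that row read 235, 209 and 199 FPKM. Among the ligands, Vegfa was at 73.5, 89.1 and 80.1 FPKM and Vegfc at 71.4, 51.5 and 49.4 FPKM in these sorted cells. Angpt1, the agonist of Tek made by mural cells, was at 2.13, 3.95 and 4.17 FPKM, and Angpt2, its context-dependent antagonist, was at 6.85, 8.12 and 9.13 FPKM. Vegfd, a fibroblast-derived VEGF of lung, was at 0.997, 7.33 and 4.22 FPKM, just under 1 FPKM in control A.

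The BMP pathway of endothelium starts from circulating BMP9 and BMP10, which bind ALK1 with its co-receptor endoglin. Acvrl1, which encodes ALK1, was high and very even, at 548, 558 and 554 FPKM. Eng, endoglin, was at 396, 332 and 405 FPKM and Bmpr2, the type II receptor, at 113, 88.9 and 95.1 FPKM. Tmem100, a target of ALK1, was at 776, 589.9 and 574 FPKM. The targets Id1 and Id3, inhibitors of differentiation, were both highest in control B, Id1 at 239, 414 and 277 FPKM and Id3 at 251, 417 and 281 FPKM. Smad6, an inhibitory Smad, was at 176, 179 and 194 FPKM. Of the genes for the circulating ligands, Gdf2 (BMP9) was listed at 0, 0.0347 and 0 FPKM and Bmp10 at 0 in all 3 libraries, while Bmp6 was at 87.6, 112 and 96.7 FPKM. In all, 19 of 21 genes on this list were kept, with a median of 50.2 FPKM.

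All 13 genes of the Notch list were kept, with a median of 57.5 FPKM. Notch4, the receptor most restricted to endothelium, was at 119, 123 and 118 FPKM and Notch1 at 87.1, 87.6 and 96.7 FPKM. The Notch4 level exceeded the Notch1 level in each library, by 1.36, 1.41 and 1.22 times. Notch3, a receptor of mural cells, was at 4.02, 10.1 and 13.2 FPKM. Of the ligands, Dll4, the arterial and tip cell ligand, was at 131, 116 and 136 FPKM, Jag2 at 57.3, 58 and 57.1 FPKM, Dll1 at 56.7, 36.6 and 39.6 FPKM and Jag1 at 22.2, 21.1 and 22.1 FPKM, and the ranges of neighbours in this order did not overlap. The targets Hes1, at 184, 170.5 and 143 FPKM, and Nrarp, at 113, 71.2 and 108 FPKM, were above 50 FPKM in every library. S1pr1, the sphingosine 1-phosphate receptor that tightens endothelial junctions, was at 494, 276 and 339 FPKM, far above its relatives S1pr2 at 4.69, 6.08 and 5.6 FPKM and S1pr3 at 2.01, 4.18 and 4.75 FPKM. Spns2, the exporter of sphingosine 1-phosphate, was at 106, 109 and 113 FPKM. S1pr5, Sphk1, a sphingosine kinase, and P2ry1, an ADP receptor, were below 1 FPKM.

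The marker lists of both capillary types were kept in full, which does not by itself show that both types were present. Tek and Cd93 of the general capillary list are also on the pan-endothelial list. All 12 Car4-high markers were kept, with a median of 137 FPKM, and all 12 general capillary markers, with a median of 224 FPKM. Of the Car4-high markers, Igfbp7, a secreted binding protein, was highest at 584, 729 and 669.5 FPKM, followed by Prx, or periaxin, at 268, 249 and 235 FPKM. Ednrb, the endothelin B receptor, was at 124, 69.9 and 77.6 FPKM, Apln, the ligand apelin, was at 169, 82.5 and 119 FPKM and Kitl, the ligand of the Kit receptor, was at 178, 113 and 138 FPKM. These 3 were highest in control A. Of all 12 Car4-high markers 7 were highest there, against 31.8% of baseline genes, and 5 were lowest there, against 49.5%. The receptors for both ligands are on the general capillary list. Aplnr, the apelin receptor, was at 299.9, 334 and 357 FPKM, above Apln in every library. Kit was at 149.7, 198 and 172 FPKM, and its range overlapped that of Kitl. Gpihbp1, which holds lipoprotein lipase at the capillary surface, was at 581, 299.8 and 329.6 FPKM, and its level in control A lay well above that in both other libraries. Sema3c, a guidance signal, was at 239, 207 and 166 FPKM. The Plvap level over the Car4 level was 3.01, 3.96 and 5.39, so the proportion of these markers differed between the libraries more than that of Cdh5 over Pecam1, which was 1.41, 1.44 and 1.48. In whole-population RNA such as this, fewer cells of a type and less RNA per cell cannot be told apart.

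**Figure D3:**
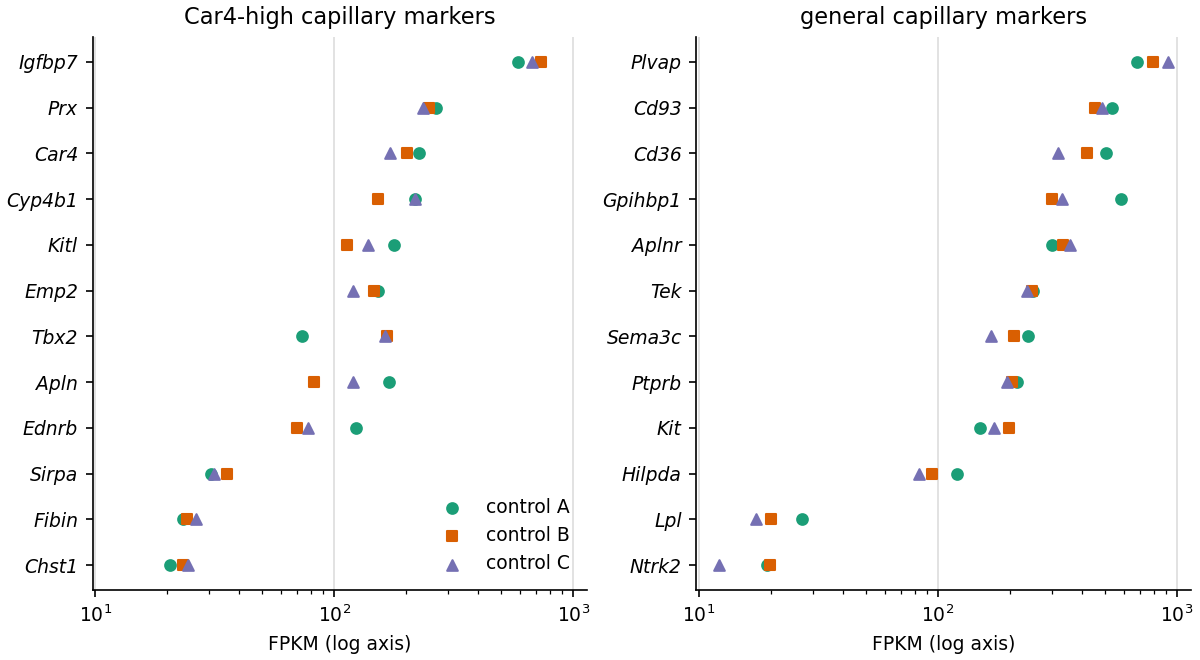
Levels in FPKM on a log axis are shown for the 12 Car4-high capillary markers on the left and the 12 general capillary markers on the right, sorted by mean level with 1 symbol per control library. Every marker lies above 10 FPKM in each library, and Tbx2, Ednrb and Gpihbp1 show wide gaps between control A and the others.

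Arterial genes were present in full, with 15 of 15 kept and a median of 80.9 FPKM. Efnb2, the arterial ephrin, was at 203, 174 and 173 FPKM, Gja4, the gap junction protein connexin 37, was at 163, 249 and 174 FPKM and Gja5, connexin 40, was at 40.2, 28.9 and 37.2 FPKM. Mgp, matrix Gla protein, which prevents calcification of vessel walls, was at 108, 284 and 123 FPKM. It was the 1 gene of the 15 past a 2-fold range, against 5.42% of all baseline genes. Bmx, a kinase of arterial endothelium, was far lower at 4.71, 3.64 and 3.86 FPKM. The Notch target Hey2, at 0.986, 1.04 and 1.07 FPKM, and Gkn3, at 0.814, 1.2 and 1.16 FPKM, only just passed the level minimum. Of the 11 venous genes 9 were kept, with a median of 19.4 FPKM. Ephb4, the venous receptor of Efnb2, was at 218, 218 and 232 FPKM, Vwf, the von Willebrand factor, was at 116, 166 and 175 FPKM and Nr2f2, the venous factor COUP-TFII, was at 13.6, 21 and 23.7 FPKM. Selp, the adhesion molecule P-selectin, was at 0.866, 0.986 and 1.01 FPKM and Ackr1, a chemokine-binding protein of venules, was at 0.0639, 0.1 and 0.721 FPKM, both under the level minimum.

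Lymphatic genes were lower and uneven. Prox1, the factor that sets lymphatic identity, was at 3.09, 1.87 and 1.2 FPKM, and Reln, or reelin, was at 4.22, 2.11 and 1.33 FPKM. Lyve1, a hyaluronan receptor of lymphatics that lung blood endothelium also uses early in life, was much higher, at 582, 222 and 363 FPKM. All 7 genes kept were highest in control A, where 31.8% of baseline genes were highest. Past a 2-fold range were 4 of the 7, against 5.42% of all baseline genes and 8.02% of those between 1 and 10 FPKM. Pdpn, a membrane mucin that also marks alveolar type 1 cells, was at 3.78, 3.35 and 2.45 FPKM. Thy1, at 11.9, 4.89 and 3.47 FPKM, and Mmrn1, or multimerin, at 26.9, 7.92 and 6.72 FPKM, had the widest gaps between control A and the others. Whether control A held more lymphatic cells was not tested.

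Of the junction genes 23 of 27 were kept and none was past a 2-fold range, against 5.42% of all baseline genes. Their median CV, the SD as a percentage of the mean, was 12.2%, against 11.8% over all baseline genes. Besides Cldn5 and Cdh5, Esam, an immunoglobulin-type adhesion molecule, was at 527, 429 and 447 FPKM. Ctnnb1, the catenin that binds cadherins and carries Wnt signals, was at 489, 351 and 372 FPKM, and Tjp1, the scaffold ZO-1, was at 156, 149.8 and 162 FPKM. Jup, or plakoglobin, was at 247, 258 and 255 FPKM. Ocln, occludin, was far lower, at 38.1, 24.8 and 28.9 FPKM. Of 25 claudin rows in the table, 5 were kept, and after Cldn5 the next were Cldn25 at 40.9, 33.1 and 35.7 FPKM and Cldn12 at 6.13, 6.66 and 5.58 FPKM. The epithelial claudins Cldn1, Cldn3 and Cldn4 were under 1 FPKM in every library, with Cldn3 at 0.578, 0.768 and 0.65 FPKM.

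Genes of caveolae and transport had a median of 115 FPKM, and 18 of 19 were kept. None was past a 2-fold range, against 5.42% of all baseline genes, and their median CV was 13.9%. Cavin1, a coat protein of caveolae, was at 405, 410.2 and 362 FPKM, Cavin2 at 381, 341 and 360.4 FPKM and Ehd2, an ATPase at the caveolar neck, at 221, 193 and 204 FPKM. Slco2a1, the prostaglandin transporter, was very even at 309, 306 and 302 FPKM. Transporters known from the blood-brain barrier ranged widely. The drug efflux pumps Abcb1a, at 36.8, 40.7 and 28.2 FPKM, and Abcg2, at 33.9, 25.4 and 28.3 FPKM, stood above the median gene. Those below it included Slc2a1, the glucose transporter GLUT1, at 5.14, 4.13 and 5.44 FPKM, Slc7a5, an amino acid transporter, at 3.8, 2.77 and 3.5 FPKM and Tfrc, the transferrin receptor, at 2.17, 1.93 and 1.87 FPKM. Mfsd2a, a lipid transporter of brain endothelium, was at 0.0636, 0 and 0 FPKM. Of the lipid uptake genes 15 of 18 were kept. Cd36, the fatty acid translocase, was at 505, 421 and 318 FPKM and Scarb1, the HDL receptor, was at 128, 115 and 116 FPKM. The fatty acid binding proteins Fabp4, at 27, 27.9 and 32.6 FPKM, and Fabp5, at 27.1, 17.9 and 32.9 FPKM, were far below Cd36. Lipg, endothelial lipase, was at 0.922, 2.85 and 5.22 FPKM and Fabp3, the heart-type binding protein, at 0.676, 4.19 and 3.27 FPKM. These 2 of the 15 genes kept were past a 2-fold range, against 5.42% of all baseline genes. Both were lowest in control A, where 49.5% of all baseline genes were lowest.

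Genes that set vascular tone covered both relaxing and constricting pathways, with 22 of 24 kept. Ace, which makes angiotensin II and is a known product of lung capillaries, was at 646, 616 and 551 FPKM. Nos3, the endothelial nitric oxide synthase, was at 58.6, 41.1 and 42.4 FPKM, and Ddah2, which removes an inhibitor of that enzyme, was at 216, 234 and 229 FPKM. Edn1, the constrictor endothelin 1, was at 91.7, 56.1 and 49.8 FPKM, and Ece1, the enzyme that activates it, was at 236, 228 and 254 FPKM. Ednra, the endothelin A receptor of smooth muscle, was at 5.71, 15.3 and 17.3 FPKM, lowest in control A, where 49.5% of baseline genes were lowest. All 13 mesenchymal markers kept were lowest there too, and their part in this was not tested. Calcrl, the adrenomedullin receptor, was at 599.9, 552 and 530.4 FPKM. The Ramp2 level over the Calcrl level was 1.68, 1.76 and 1.89. Ramp3, the other partner of Calcrl, was far lower than Ramp2, at 50.7, 22.3 and 21.4 FPKM, and more than 2-fold higher in control A than in control C. Adm, adrenomedullin itself, was at 2.5, 4.84 and 1.81 FPKM.

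Of the haemostasis genes 17 of 20 were kept, with a median of 45.4 FPKM. Thbd, thrombomodulin, which turns thrombin into an anticoagulant, was at 542, 649 and 489 FPKM, above Vwf in every library. Tfpi, the tissue factor inhibitor, was at 49.6, 41.6 and 45.1 FPKM and F3, tissue factor, at 0.591, 2.47 and 0.785 FPKM. Plat, the tissue plasminogen activator, was at 115, 47.4 and 62.2 FPKM and Procr, the protein C receptor, was at 25.7, 11.9 and 17 FPKM. Plat and Procr were both highest in control A, and 5 of the 17 genes kept were past a 2-fold range, against 5.42% of all baseline genes. F8, coagulation factor VIII, was at 0.665, 0.267 and 0.5 FPKM, and the thrombin and protease receptors F2rl1 and F2rl2 were also under 1 FPKM.

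Of the leukocyte adhesion list 13 of 15 genes were kept, with a median of 62.6 FPKM. Constitutive surface molecules led it, with the sialomucin Cd34 at 609, 476 and 484 FPKM, Mcam, or CD146, at 561, 412 and 497 FPKM, Icam2, an integrin ligand, at 506, 377 and 359.9 FPKM and podocalyxin, Podxl, at 296, 307 and 287 FPKM. Among those known to be induced by inflammation Icam1 was at 67.5, 53.5 and 66.8 FPKM, whereas Vcam1 was at 1.7, 8.44 and 3.75 FPKM and Sele, E-selectin, was at 1.49, 2.3 and 1.51 FPKM. Madcam1, the gut homing ligand, was at 0.0505, 0 and 0 FPKM. Ackr3, a scavenging receptor for CXCL12, was at 262, 178 and 232 FPKM, and Cxcl12 itself was at 164, 135 and 152 FPKM.

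Basement membrane genes were led by the collagen IV pair and by Sparc, a secreted collagen-binding protein, at 1183, 1339 and 1274 FPKM. The laminin chains of highest mean level were Lamc1, at 125, 136 and 156 FPKM, Lamb2, at 60.9, 78.2 and 71.5 FPKM, and Lamb1, at 37.8, 53.3 and 64.8 FPKM. The alpha chains of endothelial laminins, Lama4 at 36.9, 44.2 and 48 FPKM and Lama5 at 37.5, 54.7 and 53 FPKM, had lower means. The other collagen IV chains were low, with Col4a3, Col4a4 and Col4a6 under 1 FPKM and Col4a5 at 1.83, 4.05 and 3.21 FPKM. Of 19 genes kept, 14 were lowest in control A, against 49.5% of all baseline genes, and after rescaling by the median of ratios 12 were, against 37.7%. Mesenchymal markers were lowest there too, and their part in this was not tested. Of the 19 genes 2 were past a 2-fold range, against 5.42% of all baseline genes. They were Fn1, fibronectin, at 47.4, 106 and 99.7 FPKM, and Lama2, a laminin chain of muscle and mesenchyme, at 2.92, 7.67 and 7.66 FPKM. Of the receptors for these proteins, Itgb1, the common beta chain, was at 537, 413 and 439 FPKM, Itga6, a laminin-binding chain, was at 162, 111 and 136 FPKM and Itga5, the fibronectin-binding chain, was at 112, 105 and 115 FPKM. Itga8, a chain of mesenchymal cells, was at 2.22, 7.92 and 5.61 FPKM. Guidance genes were kept in 29 of 30 cases, with a median of 48.7 FPKM. Plxnd1, a semaphorin receptor of endothelium, was at 133, 123 and 162 FPKM, Sema3g, an arterial semaphorin, was at 144, 182 and 147 FPKM and Robo4, an endothelial roundabout receptor, was at 119, 107 and 106 FPKM. Robo1 and Robo2, the neuronal and mesenchymal members, were low and lowest in control A, Robo1 at 3.63, 8.85 and 10.8 FPKM and Robo2 at 2.96, 7.3 and 8.71 FPKM.

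Cytoskeletal genes had a median of 355 FPKM, below that of the pan-endothelial list alone at 441 FPKM, and all 24 were kept. Vim, the intermediate filament vimentin, was at 1644, 1366 and 1400.5 FPKM and Tmsb4x, the actin-binding thymosin, was at 1443, 1275 and 1236 FPKM. Glycolytic genes were the steadiest list, with a median CV (the SD as a percentage of the mean) of 5.44%, against 11.8% over all baseline genes, and 16 of 18 were kept. Pkm, pyruvate kinase, was at 155, 139 and 137 FPKM, Aldoa, aldolase, was at 111, 110.4 and 102 FPKM and Hk1, hexokinase 1, was at 37.3, 37.1 and 37.6 FPKM. Hk2, the inducible hexokinase, was at 0.141, 0.419 and 0.209 FPKM. Pfkfb3, an activator of glycolysis known from sprouting endothelium, was at 7.45, 7.84 and 7.52 FPKM.

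Cell cycle genes were present in full. All 20 S phase genes were kept with a median of 16.1 FPKM, and the G2 and M phase list kept 21 of 21 with a median of 10.7 FPKM. Pcna, the clamp of DNA polymerase, was at 151, 90.2 and 112 FPKM, and Mcm3, a subunit of the replicative helicase, was at 39.7, 27.4 and 33.5 FPKM. Mki67, the proliferation antigen Ki-67, was at 26.5, 17.9 and 26.6 FPKM, Top2a, topoisomerase II, was at 40.4, 22.8 and 28.4 FPKM and Ube2c, a ubiquitin enzyme of mitotic exit, was at 41.7, 27.2 and 46 FPKM. All 20 S phase genes and 20 of the 21 genes of G2 and M phase were lowest in control B, where 30.4% of all baseline genes were lowest. Cdc20, the activator of the anaphase complex, was the exception, at 21.3, 27.9 and 32.7 FPKM, lowest in control A. Neither list had a gene past a 2-fold range, against 5.42% of all baseline genes. Their median CVs were 19.3% for S phase and 21.7% for G2 and M phase, against 11.8% over all baseline genes. Ccnd1, cyclin D1, was at 139.8, 88.7 and 126 FPKM, highest among the D cyclins in every library, and Cdkn1a, the inhibitor p21, was at 62.3, 36.7 and 46 FPKM.

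Upstream sequences of the 3 G2 and M phase genes of highest level with an entry in the promoter table are shown because a CCAAT motif was frequent in this list. In the window from 250 bases before to 50 bases after the start, CCAAT on either strand was found in 15 of 17 promoters of the list, against 38.5% of 8471 promoters of baseline genes and 37.9% of all 27025 promoters in the table. All 17 had a ratio of observed to expected CpG over 0.6, against 75.9% of the promoters of baseline genes. CCAAT was not particular to this list, with 9 of 10 in the antigen presentation list and 10 of 17 in the S phase list. In the pan-endothelial list 2 of 11 promoters had it. CCAAT and its complement ATTGG are in capitals, and where they overlap both count. The 250 bases of Ube2c lie at chr2:164769679-164769928 on the forward strand with 6 matches in these bases, those of Top2a at chr11:99024190-99024439 on the reverse strand with 6, and those of Cdc20 at chr4:118437344-118437593 on the reverse strand with 2.
Ube2c: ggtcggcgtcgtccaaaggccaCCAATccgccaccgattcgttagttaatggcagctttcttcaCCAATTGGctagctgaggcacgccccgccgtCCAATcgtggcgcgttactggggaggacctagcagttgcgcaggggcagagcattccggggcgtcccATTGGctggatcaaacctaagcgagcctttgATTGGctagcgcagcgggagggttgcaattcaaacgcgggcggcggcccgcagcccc
Top2a: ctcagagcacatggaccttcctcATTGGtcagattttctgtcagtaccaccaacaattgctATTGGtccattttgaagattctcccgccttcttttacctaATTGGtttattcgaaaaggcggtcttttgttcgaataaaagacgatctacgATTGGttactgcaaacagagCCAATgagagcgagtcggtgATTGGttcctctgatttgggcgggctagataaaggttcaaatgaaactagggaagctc
Cdc20: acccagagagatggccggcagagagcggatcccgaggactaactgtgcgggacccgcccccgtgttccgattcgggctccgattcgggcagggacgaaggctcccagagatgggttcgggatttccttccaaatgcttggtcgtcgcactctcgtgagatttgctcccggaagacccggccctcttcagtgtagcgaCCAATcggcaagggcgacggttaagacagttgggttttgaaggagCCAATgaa

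Promoters of the baseline as a whole were richer in CpG than those of other rows. A CpG ratio over 0.6 was found in 75.9% of the promoters of baseline genes and in 19.2% of the 6497 promoters of protein-coding rows under 1 FPKM. TATAAA, the TATA box motif, was found on either strand in 6.55% and 21.1% of them, and in 14.2% of the 514 promoters of genes from 100 FPKM. CCGGAAG, the core motif of ETS factors, was found on either strand in 19.1% and 3.46%, and in 24 of 60 promoters of ribosomal protein genes. CCAAT was found in 38.5% and 38.9%. In all promoters of the table the shares were 36.4% for the CpG ratio, 14.2% for TATAAA and 9.12% for CCGGAAG. Of the 20 pan-endothelial genes 11 were matched to a promoter, and Cdh5 and Pecam1 had no entry. Among these 11 promoters 2 had a CpG ratio over 0.6, with a median ratio of 0.27. Of the 28 endothelial transcription factors kept 15 were matched, and 11 of the 15 had a ratio over 0.6. These shares were not tested against the baseline. A match is a run of letters and not a shown binding site, and genes are not replicates.

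Transcripts that define other lung cells were measured alongside. Mesenchymal genes were the most abundant of these, with 13 of 15 kept and a median of 26.8 FPKM. Col1a1 and Col1a2, the chains of fibroblast collagen I, were at 75.6, 323 and 303 FPKM and 80.8, 274 and 249.6 FPKM. Acta2, smooth muscle actin, was at 59.5, 119.7 and 136 FPKM, and Pdgfrb, the pericyte receptor, was at 12.5, 26.7 and 33.2 FPKM. All 13 were lowest in control A, against 49.5% of all baseline genes, and 12 of the 13 were past a 2-fold range, against 5.42%. The exception was Rgs5, a pericyte marker, at 9.08, 9.94 and 11.5 FPKM. The summed level over the list's 15 genes was 1356 FPKM in control A, 4231 FPKM in control B and 3678 FPKM in control C, of which Eln made up the larger share. Pdgfra, the fibroblast receptor, shares a row with a microRNA and fell to the rule, and that row read 9.41, 23.4 and 26.3 FPKM.

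Epithelial, immune and blood transcripts were lower. Epcam, which marks all lung epithelium, was at 0.2, 0.596 and 0.186 FPKM, and Cdh1, E-cadherin, was at 0.104, 0.781 and 0.494 FPKM. Sftpc, a surfactant protein made in very large amounts by alveolar type 2 cells, was at 67.7, 145 and 38.3 FPKM, and Scgb1a1, of airway club cells, was at 20.4, 28.4 and 5.56 FPKM. The summed level of the 14 genes of alveolar type 2 and airway cells, 8 of them kept, was 115, 223 and 75.1 FPKM. The alveolar type 1 markers had 8 of 10 genes kept, but Clic5 and Hopx, at 93.8, 107 and 93.5 FPKM and 59.6, 60.8 and 57.9 FPKM, are not restricted to that cell type, while Ager and Aqp5 were at 12.9, 15.4 and 9.26 FPKM and 0.548, 1.46 and 0.307 FPKM. Ptprc, or CD45, which marks all leukocytes, was at 0.239, 1.18 and 0.0688 FPKM, and the summed level of the 15 leukocyte genes was 28.4, 54.7 and 9.74 FPKM. Of the 7 leukocyte genes kept, each was lowest in control C, where 20.1% of baseline genes were lowest, and 6 were highest in control B, where 35.3% of baseline genes were highest. These counts are partly set by the level minimum, and nothing is concluded from them. The medians of these 7 genes were 2.85, 4.04 and 0.252 FPKM, and the other 8 genes were left out as under 1 FPKM. Msln, a mesothelial surface protein, was at 10.2, 33.9 and 10.1 FPKM. Haemoglobin rows were low in control B, with Hbb-b1 at 149, 46.2 and 117 FPKM. Of the 8 neural genes 1 was kept, S100b, at 1.31, 1.32 and 2.08 FPKM.

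Between libraries the typical gene varied little. The median CV was 11.8%, the quartiles were 6.93% and 19.8%, and the highest library stood a median of 1.22 times above the lowest. Genes between 1 and 10 FPKM had a median CV of 16.1%, and genes from 100 FPKM to under 1000 FPKM had 9.46%. On the log2(FPKM + 1) scale Pearson's r across the 11587 genes, which are not independent replicates, was 0.971 for controls A and B, 0.975 for A and C and 0.983 for B and C. Of the 628 genes past a 2-fold range, 440, or 70.1%, were lowest in control A, against 49.5% of all baseline genes. Highest in control B were 329 of the 628, against 35.3% of all baseline genes. Highest in control C were 204, a similar proportion to the 3809 of all 11587 genes. Control A decided much of the number of genes past a 2-fold range. That number fell to 150 without control A, while it was 380 without control B and 462 without control C. The description labels of controls B and C share a prefix that control A lacks, with no meaning stated, so this cannot be told apart from other differences of control A.

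Among genes of at least 50 FPKM, the widest range was that of Rnu12, a small RNA of the minor spliceosome, at 22.9, 0 and 130.2 FPKM. The libraries were made from poly(A) RNA and no fragment counts are given, so how few fragments this row rests on is unknown. Matrix, stress and early response genes made up most of the next widest ranges. Mfap4, a microfibril protein of elastic tissue, was at 51.2, 431 and 235 FPKM. Fos, an immediate early factor, was at 141, 607 and 222 FPKM, and Egr1, another, was at 76.5, 283 and 204 FPKM. Hspa1a and Hspa1b, near-identical genes for the heat shock protein HSP70, were at 55.5, 91.9 and 17.4 FPKM and 71.9, 123 and 21 FPKM, lowest in control C. Thbs1, the matrix protein thrombospondin 1, was at 37.8, 132 and 143 FPKM. Agt, angiotensinogen, was at 27.3, 75.6 and 98 FPKM, and Hspb1, a small heat shock protein, was at 77.4, 185 and 47.9 FPKM. Cyr61, a target of YAP signalling, was at 79.3, 320.0 and 175 FPKM. These genes did not share 1 pattern over the libraries: Mfap4, Fos and Egr1 were lowest in control A, whereas the HSP70 genes were lowest in control C. At a level of at least 10 FPKM the widest gaps included those of Xist, at 33.3, 44.8 and 0.0924 FPKM, Clec3b, or tetranectin, at 2.39, 35.8 and 10.8 FPKM, Enpep, an aminopeptidase of the angiotensin system, at 1.79, 21.8 and 10.7 FPKM, and Dpt, the matrix protein dermatopontin, at 10.2, 58.9 and 31.6 FPKM. At the other end, Kctd10, an adaptor of ubiquitin ligases, was at 117, 117 and 117 FPKM and Akr1a1, an aldehyde reductase, at 331, 333 and 331 FPKM. Foxp1, a forkhead factor, was among the 10 steadiest genes of that level, at 68.5, 68.7 and 67.9 FPKM.

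**Figure D4:**
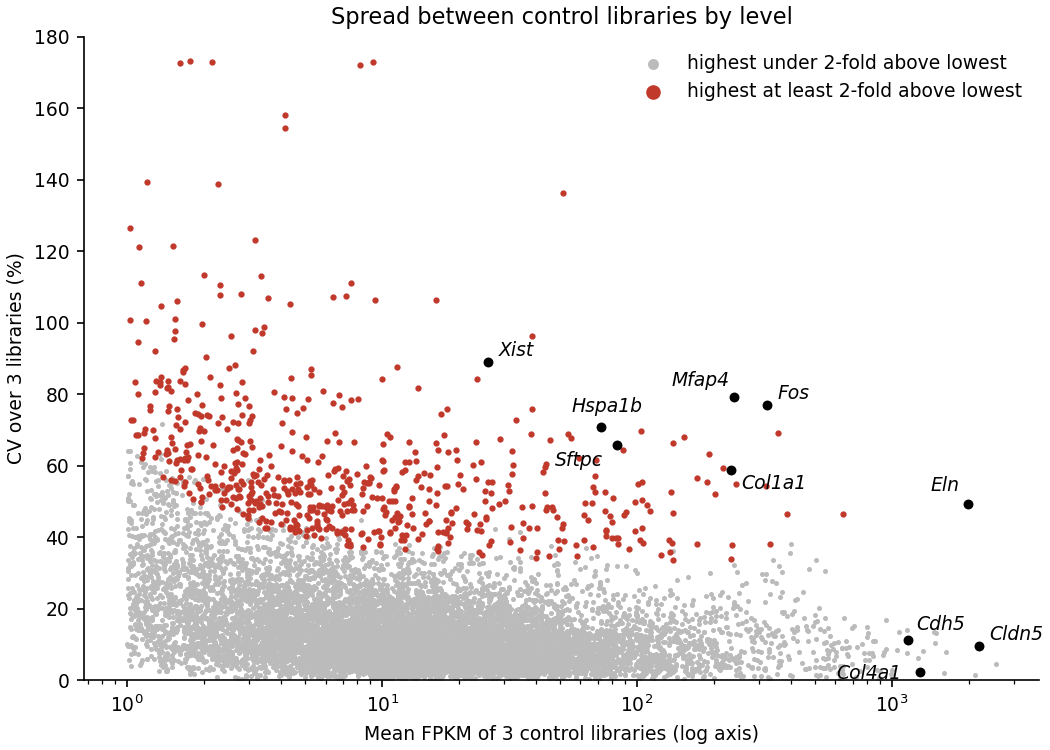
Each point is a gene of the baseline, with its mean FPKM over the 3 control libraries on a log axis and its CV on the vertical axis; red points are the 628 genes whose highest library is at least 2-fold above the lowest on the FPKM + 1 scale, and named genes are in black. Col4a1 lies near the floor at high level and Cldn5 and Cdh5 near the 11.8% of the median gene, while Eln, Mfap4 and Fos lie far above.

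Groups of genes moved together between the libraries. Of 20 immediate early and stress genes, which growth signals and cell stress are known to induce rapidly, 14 were highest in control B, against 35.3% of all baseline genes, and 12 were past a 2-fold range, against 5.42%. Jun was at 277, 554 and 363 FPKM, Junb at 146, 397 and 189 FPKM and Zfp36, which destabilizes messenger RNA, at 127, 366 and 159 FPKM. Dusp1, a phosphatase of MAP kinases, and Nr4a1, a nuclear receptor, were instead highest in control C, Dusp1 at 225, 323 and 415 FPKM and Nr4a1 at 145, 257 and 296 FPKM. Genes of antigen presentation ran lowest in control C in 14 of 14 cases, against 20.1% of all baseline genes, from B2m, the light chain of class I, at 976, 542 and 404 FPKM, to Cd74, the class II invariant chain, at 4.74, 20.8 and 2.57 FPKM. Interferon response genes were highest in control A in 11 of 13 cases, against 31.8% of all baseline genes, with Bst2, or tetherin, at 133, 112 and 78.2 FPKM and Isg15, a ubiquitin-like protein, at 10.3, 5.72 and 4.82 FPKM. The summed leukocyte level was likewise lowest in control C and highest in control B, as Cd74 was, and its part in these differences was not tested. After rescaling by the median of ratios, 37.7% of baseline genes were lowest in control A, while the 13 mesenchymal genes lowest in control A, the 14 immediate early genes highest in control B and the 14 antigen presentation genes lowest in control C kept those counts.

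Control C also differed in sex-linked transcripts. Ddx3y and Eif2s3y, carried by the Y chromosome, were at 0, 0.0981 and 24.4 FPKM and 0, 0.0307 and 27.5 FPKM, and Xist, made from the inactive X, was near 0 in control C alone. Controls A and B thus carried transcripts typical of female cells and control C of male cells. Kdm6a and Eif2s3x, X-linked genes known to escape inactivation, were at 14.7, 17.1 and 9.6 FPKM and 59.2, 51.2 and 35.3 FPKM, lowest in control C. Sex and the other differences of control C cannot be told apart.

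**Figure D5:**
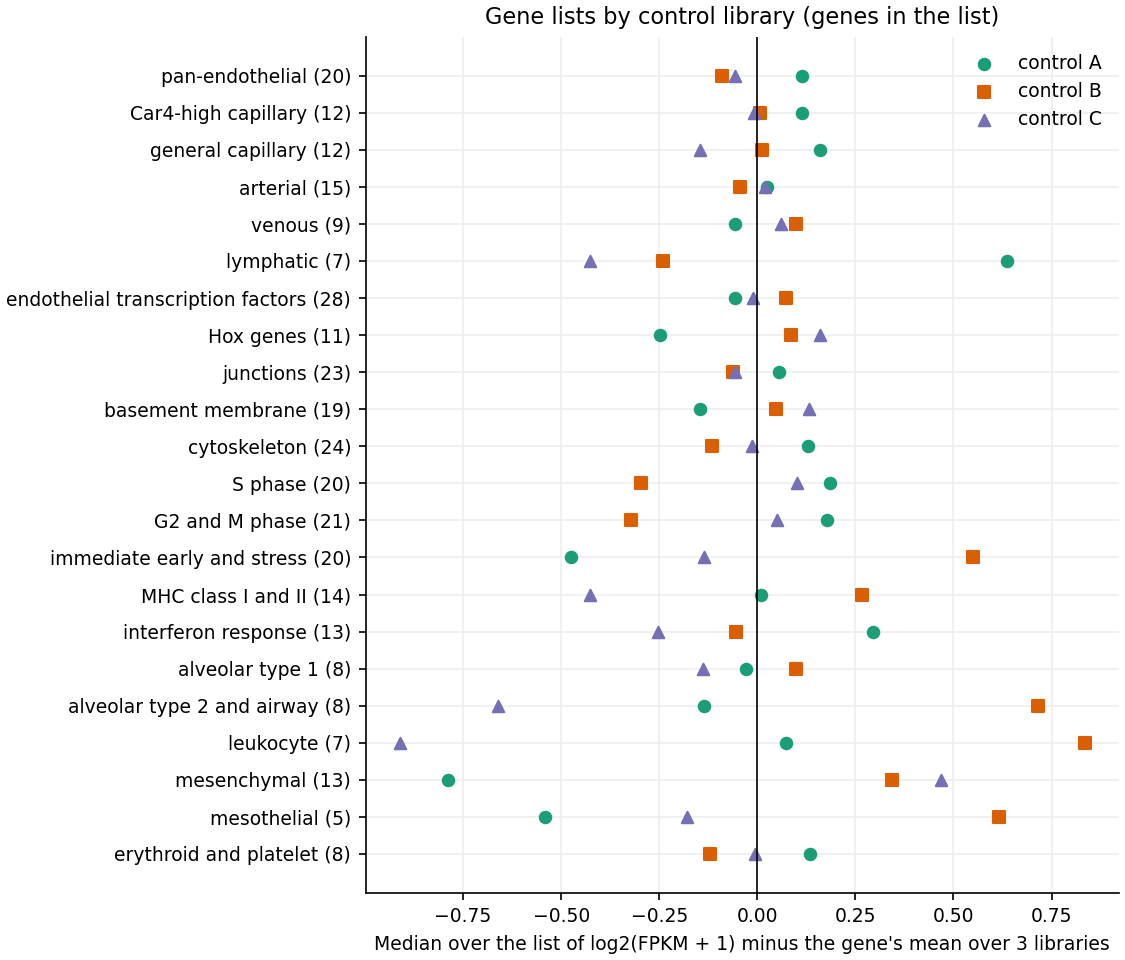
For 22 gene lists, the number of genes kept is in brackets and each symbol is the median over the list of log2(FPKM + 1) in a control library minus the gene's mean over the 3 libraries. Mesenchymal genes lie at -0.79 in control A and immediate early genes at 0.55 in control B, while junction and arterial genes stay near 0. Leukocyte genes, of which 7 of 15 passed the level minimum, lie at -0.91 in control C.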

How the data were processed

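Poly(A) RNA of sorted lung endothelial cells was sequenced as paired reads, per the labels' protocols, and aligned to mm10. Alignment tools were Bowtie2 2.2.3 with TopHat2 2.0.14, and quantification tools were Cuffdiff with Cufflinks 2.2.1, as the submitters' processing notes list them. Strand use in counting and the gene annotation are not given in the sources used here, and levels of genes that overlap, or lie antisense to each other, are uncertain for that reason. The authors deposited 1 FPKM value per row and library, which holds no counts. Columns were assigned to samples by title. Relative depth was read from rows under 0.1 FPKM, as the commonest ratio between libraries within 0.02 (log2).

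Genes were the rows with a control mean of at least 1 FPKM, without the 67 rows starting Mir, Snora or Snord, of which 37 also name another gene, such as Nrp1. Spread was measured on the log2(FPKM + 1) scale (pseudocount 1), which understates the range of low genes, and as the CV. No test was made. Scripts ran in Python 3.11.15 with pandas 2.3.3, numpy 2.4.6 and matplotlib 3.10.9, and were tested on simulated data. RefSeq promoters (GRCm38.p6) were matched by symbol, taking the first start listed, for 8471 of 11097 protein-coding genes of the baseline.

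The genes and the 38 lists, with 642 entries, were chosen with earlier results of these data known. Genes named were the 30 of highest mean, the 6 markers, up to 8 of highest mean in each list and those of it under 1 FPKM, the 15 of widest range and the 10 of smallest CV from 50 FPKM, the 15 of widest range from 10 FPKM, and the 5 nearest to Cdh5 in level on each side; some genes that this rule names are not reported here. Other genes named, gene families, ratios between genes and the sequences shown were chosen after their values were seen. Alternatives were other pseudocounts, level minimums, scalings and the leaving out of a library.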

Additional observations from a re-analysis of the deposited data

How the results depend on the processing

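The 628 genes past a 2-fold range became 1005 with a pseudocount of 0.1, 232 with a pseudocount of 5 and 229 with a minimum of 10 FPKM, and ran from 150 to 462 with 1 library left out. The 10 highest genes held 4.50% of the sum, 4.91% without ribosomal and mitochondrial rows and 4.59% without joined rows, and the 50 highest held 13.2%, or 13.5% without ribosomal and mitochondrial rows. Keeping the joined rows that name a microRNA and another gene, chosen after seeing the data, gave 11624 genes. Of 38 list medians, 2 moved by more than the spread between libraries without control A, 1 without control B and 1 with the median over libraries. Under another scaling 8 lists changed which library was highest or lowest, so the order of libraries is not given for the arterial, transcription factor, VEGF, BMP, Notch, S1P, vascular tone and neural lists. Rows dropped by the rule made up 20.6%, 1.11% and 1.83% of the FPKM sum in controls A, B and C. Depth is unknown, so a level of 0 sets no limit. No paired analysis was possible because 1 group was described and no test was made.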

Other observations

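Whole gene families lay outside the baseline. Of 1106 olfactory receptor rows, 3 were kept, and 1061 were listed at 0 in all 3 controls. The highest, Olfr856-ps1, a pseudogene by its name, was at 16.7, 9.65 and 12.8 FPKM. None of 339 vomeronasal receptor rows and none of 42 beta-defensin rows reached the level minimum. Of 49 keratin rows 6 were kept, led by Krt80 at 27.3, 21.4 and 26 FPKM, while the epithelial keratins Krt8 and Krt18 were at 1.08, 2.1 and 2.85 FPKM and 0.821, 3.12 and 2.3 FPKM. Of 19 Wnt ligands 5 were kept, and 4 of these were past a 2-fold range, against 5.42% of all baseline genes, with Wnt5a at 7.26, 25.7 and 26.7 FPKM and Wnt11 at 8.28, 32.2 and 29.8 FPKM, both lowest in control A. The summed level of the mesenchymal list was also lowest there, at 1356 FPKM against 4231 and 3678 FPKM, and its part in this was not tested. Of 10 Frizzled receptors, which bind Wnt ligands, 8 were kept. Fzd4, the receptor needed for retinal vessels, led them at 69.2, 83.1 and 86.4 FPKM and Fzd6 followed at 42.6, 48.6 and 42.8 FPKM.

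Long noncoding RNAs were kept in 223 of 1771 rows, or 12.6%, with a median of 2.96 FPKM, against 55.3% of protein-coding rows. Malat1, a nuclear RNA of most cells, was highest at 151, 207 and 137 FPKM. Fendrr, which lies beside Foxf1, was nearly as high at 142, 175 and 164 FPKM. H19, an imprinted RNA, was at 36.8, 37.8 and 57.6 FPKM, and its neighbour Igf2, a growth factor, was at 17.6, 13.4 and 14.5 FPKM. Mest, another imprinted gene, was at 299.9, 161 and 276 FPKM, lowest in control B.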
